A study of Homo sapiens with 12 samples.

Results

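The genes described here are a set of type I interferon response genes, measured by RNA sequencing in MCF10A cells after siRNA against YAP and TAZ, after an inhibitor of MST1 and MST2, and after both. The set was given as 39 gene symbols, and a member is a gene of that list that the deposited table places on an assembled chromosome. This rule found 38 members among the 46931 genes of the table. IFI27, the remaining symbol, is listed on another scaffold and was not analysed here. Of the 38 members 32 had enough reads to be tested, and MX2, HERC5, CMPK2, RSAD2, EPSTI1 and TAP1 did not. A member that was kept only through reads in one group had to differ there, so the members tested are not the whole set.

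Type I interferons are secreted proteins that bind the receptor chains IFNAR1 and IFNAR2. The kinases JAK1 and TYK2 then phosphorylate STAT proteins, among them STAT2, and a complex of these with IRF9 binds a DNA element called the interferon-stimulated response element (ISRE) near genes whose products block viruses at many steps. Many of these genes also keep a basal level in epithelial cells without infection, and some are driven directly by IRF1, IRF7 or other IRF proteins.

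MCF10A is an immortalised human mammary epithelial line, labelled wild type, and every library comes from it. There were 4 groups of 3 libraries, lettered a to c in the labels. The siYT_XMU cells were given siRNA to YAP and TAZ (11 nM, described as different sets), followed 48 h later by 6 h of XMU-MP1 at 5 µM. In siYT_DMSO they received the same siRNA and the solvent DMSO, in siC_XMU a control siRNA at 22 nM and XMU-MP1, and in siC_DMSO the control siRNA and DMSO. XMU-MP1 inhibits MST1 and MST2, kinases of the Hippo pathway. That pathway keeps YAP (encoded by YAP1) and TAZ (encoded by WWTR1), coactivators of transcription, in check, and a non-canonical branch of it is the subject of the series. No interferon was added in any group. The effects of lowering YAP and of lowering TAZ cannot be told apart in these groups. The labels do not say that a, b and c were grown apart, and the p-values then measure only how these libraries vary, which may be technical.

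Levels are CPM, which is counts scaled to library size, here with edgeR's TMM factors, and a difference was called where edgeR's quasi-likelihood test gave a Benjamini-Hochberg adjusted p under 0.05 over the 18143 genes tested. YAP1 was at 12.6, 9.09 and 7.84 CPM in siYT_DMSO, against 201, 223 and 193 CPM in siC_DMSO, and WWTR1 at 4.30, 4.47 and 3.66 CPM, against 34.6, 24 and 38.2 CPM. Under XMU-MP1 YAP1 was at 6.63, 3.81 and 5.39 CPM in siYT_XMU, against 132, 135 and 142 CPM in siC_XMU, and WWTR1 at 2.11, 1.24 and 0 CPM, against 56.9, 60.3 and 56.0 CPM. Library c of siYT_XMU stood apart, with 8243351 counts against 25246464 to 67953633 in the other libraries, 15135 genes with a count against 17950 to 20704, and 16.9% of its counts in a single gene against at most 5.72%. A count of 0 there allows up to 0.622 CPM, which is 3 counts, against 0.0382 CPM in library b of siC_DMSO, the deepest. Results on siYT_XMU are therefore also given without this library, in a fit of 19211 genes. That fit also tested the members MX2, HERC5, RSAD2 and EPSTI1, and it left CMPK2 and TAP1 untested. Its member counts are therefore not out of 32. All groups share an estimate of spread per gene, so library c of siYT_XMU also bears on calls in comparisons without siYT_XMU.

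Promoter sequence carries the element by which this gene set is usually recognised, so it is shown first for 6 members that changed. RefSeq windows of 300 bases, 250 before and 50 after the annotated start on GRCh38.p14, were found for 31 of the 38 members, and IFIT2, IRF7, TRIM22, MX2, OAS2, OASL and USP18 had none. IFIT3 (chr10:89327747-89328046, plus strand), IFIT5 (chr10:89414318-89414617, plus strand), DTX3L (chr3:122564088-122564387, plus strand) and PARP14 (chr3:122680589-122680888, plus strand) fell in at least 1 comparison below. ISG20 (chr15:88638766-88639065, plus strand) and SAMD9 (chr7:93117930-93118229, minus strand) were higher with the YAP and TAZ siRNA. Capitals mark matches to the ISRE core, GAAA and GAAA with any 2 bases between them, on either strand, and all windows read along the gene.
IFIT3: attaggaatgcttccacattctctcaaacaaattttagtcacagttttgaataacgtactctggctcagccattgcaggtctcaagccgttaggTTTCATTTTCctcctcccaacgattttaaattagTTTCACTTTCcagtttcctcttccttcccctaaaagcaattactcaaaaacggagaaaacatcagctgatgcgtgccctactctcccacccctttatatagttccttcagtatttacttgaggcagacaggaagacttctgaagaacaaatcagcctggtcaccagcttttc
IFIT5: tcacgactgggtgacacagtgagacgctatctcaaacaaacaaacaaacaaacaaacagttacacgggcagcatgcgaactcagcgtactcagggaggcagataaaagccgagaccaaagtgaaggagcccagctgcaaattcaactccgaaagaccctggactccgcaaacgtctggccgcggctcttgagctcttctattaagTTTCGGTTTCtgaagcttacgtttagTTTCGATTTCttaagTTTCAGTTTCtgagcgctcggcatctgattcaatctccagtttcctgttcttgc
DTX3L: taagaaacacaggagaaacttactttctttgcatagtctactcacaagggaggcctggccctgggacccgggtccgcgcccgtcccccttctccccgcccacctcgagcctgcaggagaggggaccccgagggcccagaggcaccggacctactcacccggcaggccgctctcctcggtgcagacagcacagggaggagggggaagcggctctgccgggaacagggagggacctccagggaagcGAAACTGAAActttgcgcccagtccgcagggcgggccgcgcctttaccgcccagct
PARP14: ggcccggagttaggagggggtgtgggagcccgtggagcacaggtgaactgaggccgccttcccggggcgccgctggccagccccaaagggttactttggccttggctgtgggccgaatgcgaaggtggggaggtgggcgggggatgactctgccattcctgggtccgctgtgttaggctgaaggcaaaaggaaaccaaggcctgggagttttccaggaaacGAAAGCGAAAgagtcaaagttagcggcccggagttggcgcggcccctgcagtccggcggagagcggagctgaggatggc
ISG20: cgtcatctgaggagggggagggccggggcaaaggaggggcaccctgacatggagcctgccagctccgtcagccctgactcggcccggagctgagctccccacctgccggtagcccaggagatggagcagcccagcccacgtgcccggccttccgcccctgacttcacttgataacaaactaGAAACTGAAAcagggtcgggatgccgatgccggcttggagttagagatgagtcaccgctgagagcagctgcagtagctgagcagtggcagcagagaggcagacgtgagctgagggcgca
SAMD9: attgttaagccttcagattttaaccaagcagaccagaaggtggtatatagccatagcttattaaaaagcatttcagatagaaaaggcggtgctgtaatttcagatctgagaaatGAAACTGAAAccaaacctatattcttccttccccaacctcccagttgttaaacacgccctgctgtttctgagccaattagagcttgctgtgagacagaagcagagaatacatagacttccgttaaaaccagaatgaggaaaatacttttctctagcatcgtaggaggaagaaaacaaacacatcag
IFIT5 has 3 matches, IFIT3 has 2 in this window and 2 more in a second window further along the gene, and the other genes shown have 1 each. ISG20 and SAMD9, which were higher, carry the same letters in capitals as DTX3L, which fell. The match of DTX3L and the match in the second window of PARP9 are the same bases, chr3:122564332-122564341, because these neighbours start head to head on opposite strands.

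An ISRE core on either strand was present in a window of 22 of the 31 members, or 71.0%, against 4.38% of the 27305 genes with windows. A GAS core (TTCNNNGAA, an element bound by STAT proteins) was present in 29.0% of the members, against 9.38% of genes. The TEAD core GGAATG, named for the proteins through which YAP and TAZ reach DNA, was present in 29.0%, against 16.7% of genes. Of 18 tested members with an ISRE match, 2 were called higher and 6 lower in siYT_DMSO over siC_DMSO, against 0 higher and 2 lower of 8 without a match, where 16.1% and 16.0% of all genes tested were higher and lower. In siC_XMU over siC_DMSO 4 of the 18 were lower, against 2 of the 8, where 5.26% of all genes were. In siYT_XMU over siYT_DMSO 3 of the 18 were lower, against 0 of the 8, where 7.92% of all genes were. In siYT_XMU over siC_XMU 3 of the 18 were higher and 2 lower, against 0 of the 8 in either direction, where 17.7% and 18.6% of all genes were. A match describes letters in a window and not a bound site.

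With the knockdown of YAP and TAZ in DMSO, more members fell than rose. In siYT_DMSO over siC_DMSO 11 of the 32 members tested were called lower, or 34.4%, where 16.0% of all genes tested were lower. Another 4 members were called higher, or 12.5%, where 16.1% of all genes were higher. The median log2 fold change of the members was -0.61, against 0.02 over all genes tested. For 13 members every siYT_DMSO library lay below every siC_DMSO library, which held for 27.9% of all genes, and for 6 every library lay above, which held for 26.2%. The members that fell included IFIT2, IFIT3, USP18, TRIM22 and IRF1, and those that rose were ISG20, OASL, IRF7 and SAMD9. Without library c of siYT_XMU IFIT1 and IFIH1 were added among the lower, where 18.8% of all genes were lower.

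XMU-MP1 with the control siRNA also lowered members of the set. In siC_XMU over siC_DMSO 9 of 32 members were called, where 9.26% of all genes tested were called in either direction. Of these 8 were lower, or 25% of the members, where 5.26% of all genes were lower, and IRF7 was higher. The median log2 fold change was -0.73, against -0.02 over all genes, and 25 of the 32 values were negative. In 17 members every siC_XMU library lay below every siC_DMSO library, where 22.1% of all genes did so. In 3 members every library lay above, where 18.6% of all genes did so. The number called lower was 5 without library a or library b of siC_XMU, in fits whose share of all genes is not given here. It was 10 without library c of siYT_XMU, where 7.95% of all genes were lower. This comparison and the knockdown in DMSO share the siC_DMSO libraries, so their values are given side by side and not as separate evidence.

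After the knockdown, 4 members of 32 were called lower with XMU-MP1, IFIT2, IFIT3, IFIT5 and PARP9. In a fit of the compared groups alone IFIT5 kept its call and the other 3 did not, with adjusted p-values of 0.0585 to 0.259. The 4 members were 12.5%, where 7.92% of all genes tested were lower in siYT_XMU over siYT_DMSO, and 0 members were called higher, where 4.19% of all genes were higher. At an unadjusted p under 0.05 there were 11 members. DESeq2 called IRF7 higher and IFIT2, IFIT3, IFIT5, IFI44L, PARP9 and DTX3L lower. The shares of all genes by either criterion are not given here. The median log2 fold change was -0.50, against 0.02 over all genes. Every siYT_XMU library lay below every siYT_DMSO library in 10 members, where 16.7% of all genes did so, and above it in 0, where 10.5% did so. Without library c of siYT_XMU 5 members were called lower, with DTX3L added, and IRF7 was called higher, where 8.37% and 6.65% of all genes were lower and higher. With all libraries edgeR also called YAP1 and WWTR1 lower here, at -0.90 (adjusted p = 0.022) and -1.62 (adjusted p = 0.0463). An effect of XMU-MP1 and one of lower YAP1 and WWTR1 RNA therefore cannot be told apart in this comparison. The same holds where the response to XMU-MP1 is compared between siRNA arms.

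Under XMU-MP1 the knockdown lowered 5 members and raised 4. In siYT_XMU over siC_XMU IFIT2, IFIT3, IFIT5, USP18 and TRIM22 were called lower, where 18.6% of all genes tested were lower. ISG20, OASL, SAMD9 and CXCL10 were called higher, where 17.7% of all genes were higher, and these shares of the members are close to those of all genes. The median log2 fold change was -0.55, against 0.04 over all genes. In 13 members every siYT_XMU library lay below every siC_XMU library, where 25.9% of all genes did so, and in 3 it lay above, where 19.6% did so. Without library c of siYT_XMU 10 members were called lower and 6 higher, where 18.7% and 19.3% of all genes were, with IFIT1, IFI35, IFIH1, PARP14 and DTX3L added among the lower and OAS1 and HERC6 among the higher. This comparison shares the siYT_XMU libraries with the one before it and the siC_XMU libraries with the XMU-MP1 comparison in control cells.

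**Figure D1:**
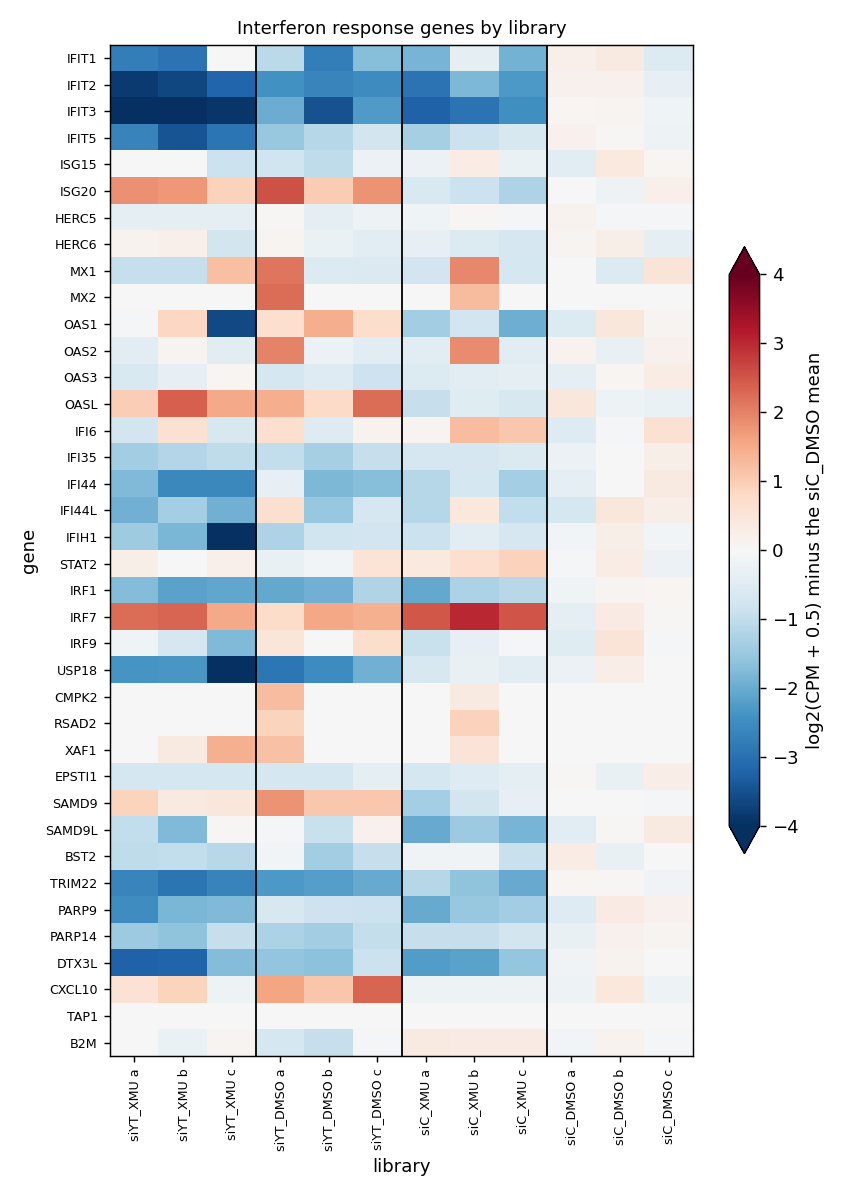
Level of each of the 38 members (rows, ordered by role) in each of the 12 libraries (columns, by group), as log2(CPM + 0.5) minus the mean of the 3 siC_DMSO libraries of that gene, with colours ending at -4 and 4. IFIT2, IFIT3, TRIM22, IRF1 and DTX3L are blue in all 9 libraries outside siC_DMSO, ISG20, OASL and SAMD9 are red in the 6 libraries with the YAP and TAZ siRNA, and IRF7 is red in all 9.

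Summed over the members other than B2M, the level was 381, 374 and 383 CPM in siYT_XMU, 497, 420.0 and 504 CPM in siYT_DMSO, 390.3, 476 and 463 CPM in siC_XMU and 698, 833 and 769.9 CPM in siC_DMSO. All 9 libraries outside siC_DMSO lay below its 3 libraries. Per length, B2M was the most abundant member in siC_DMSO at 137 ± 11.6 FPKM (SD, n = 3), followed by TRIM22 at 47.4 ± 4.26 FPKM and IRF1 at 23.3 ± 2.21 FPKM. The 3 siC_DMSO means just named are separated by more than these SDs. In siYT_XMU, IRF7 followed B2M, at 14.5 ± 6.65 FPKM. FPKM is scaled to depth without TMM, so it sets the order of genes within a group and is not used for differences between groups here.

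Among the regulators, IRF1 and IRF7 moved apart. IRF1 is a transcription factor that holds up the basal level of many of these genes. Its level was 26.3, 20.1 and 20.9 CPM in siYT_XMU, 21.6, 23.3 and 38.4 CPM in siYT_DMSO, 21.3, 37.0 and 41.3 CPM in siC_XMU and 79.6, 96.7 and 93.7 CPM in siC_DMSO. The siC_DMSO libraries were all above the other 9, and those 9 overlapped between groups. IRF1 fell in siYT_DMSO over siC_DMSO by a log2 fold change of -1.70 (SE 0.28, adjusted p = 0.000669) and in siC_XMU over siC_DMSO by -1.44 (SE 0.28, adjusted p = 0.00821). After the knockdown the inhibitor gave -0.30 (SE 0.28, adjusted p = 0.528), which is not called. For both differences from siC_DMSO a two-sided exact permutation test gave p = 0.1, the smallest value that 3 libraries against 3 allow.

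IRF7 is the factor that amplifies interferon production and is itself induced by interferon. It was at 43.0, 46.3 and 26.1 CPM in siYT_XMU, 14.9, 26.5 and 24.4 CPM in siYT_DMSO, 51.2, 74.0 and 52.1 CPM in siC_XMU and 6.62, 11.1 and 9.12 CPM in siC_DMSO. The groups siC_XMU, siYT_DMSO and siC_DMSO ran downward without overlap, and siYT_XMU overlapped siYT_DMSO through library c. The log2 fold change was 2.72 (SE 0.31, adjusted p = 0.000679) in siC_XMU over siC_DMSO and 1.29 (SE 0.30, adjusted p = 0.00563) in siYT_DMSO over siC_DMSO, both higher, and the second was lost with limma on log2(FPKM + 0.1) and log2(FPKM + 1) (adjusted p = 0.0644 and 0.0712). In siYT_XMU over siYT_DMSO it was 0.82 (SE 0.30, adjusted p = 0.0982), not called by edgeR with all libraries, and 1.02 (adjusted p = 0.0376) without library c of siYT_XMU. IRF7 was the member whose response to XMU-MP1 was called different between siRNA arms, with a difference of log2 fold changes of -1.91 (SE 0.42, adjusted p = 0.0366). In that test 1.73% of all genes tested were called lower and 0.860% higher, and 0 of the 32 members were higher. At an unadjusted p under 0.05 there were 6 members, and DESeq2 called 3 higher and IRF7 lower. The shares of all genes by either criterion are not given here. In edgeR the call for IRF7 was lost without any of 7 of the 12 libraries, with an adjusted p of up to 0.107. The call was also lost in both limma fits (adjusted p = 0.0594 and 0.0518).

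STAT2 and IRF9 belong to the complex that binds the ISRE, and edgeR with all libraries called neither in any comparison. STAT2 was at 31.4, 26.1 and 30.5 CPM in siYT_XMU, 21.5, 24.5 and 39.2 CPM in siYT_DMSO, 34.9, 42.5 and 50.1 CPM in siC_XMU and 25.3, 32.4 and 22.5 CPM in siC_DMSO. The siC_XMU libraries were above all siC_DMSO libraries, with a log2 fold change of 0.67 (SE 0.25, adjusted p = 0.122). In a fit of the compared groups alone STAT2 was called higher there, at 0.70 (adjusted p = 0.0367). IRF9 was at 4.75, 3.21 and 1.24 CPM in siYT_XMU, 7.92, 5.41 and 9.12 CPM in siYT_DMSO, 2.75, 4.22 and 5.17 CPM in siC_XMU and 3.77, 8.03 and 5.33 CPM in siC_DMSO. The siYT_XMU libraries lay below all siYT_DMSO libraries, with a log2 fold change of -1.23 (SE 0.47, adjusted p = 0.118).

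USP18 removes ISG15 from proteins and restrains signalling from IFNAR2, and it followed the siRNA rather than the inhibitor in its calls. It was at 1.47, 1.51 and 0 CPM in siYT_XMU, 0.876, 1.28 and 2.17 CPM in siYT_DMSO, 5.99, 7.79 and 7.01 CPM in siC_XMU and 8.12, 11.7 and 9.53 CPM in siC_DMSO. Every library with the YAP and TAZ siRNA was below every library with the control siRNA. USP18 fell in siYT_DMSO over siC_DMSO by -2.75 (SE 0.64, adjusted p = 0.00579) on the log2 scale and in siYT_XMU over siC_XMU by -2.62 (SE 0.64, adjusted p = 0.00764), or -2.22 (adjusted p = 0.00148) without library c of siYT_XMU, where its count was 0. The inhibitor with the control siRNA gave -0.49 (SE 0.59, adjusted p = 0.706). USP18 has a near-identical copy, USP41, and how reads shared by both were counted is not given in the sources used here. IFIH1, the cytosolic sensor of long double-stranded RNA also called MDA5, was at 8.95, 6.65 and 0 CPM in siYT_XMU, 10.3, 14.1 and 14.4 CPM in siYT_DMSO, 13.4, 17.9 and 15.4 CPM in siC_XMU and 22.9, 29.5 and 22.9 CPM in siC_DMSO. Its levels were ordered without overlap from siC_DMSO down except between siYT_DMSO and siC_XMU, and edgeR with all libraries did not call it. DESeq2 called IFIH1 lower in siYT_XMU over siC_XMU, at -1.47 (adjusted p = 0.0448). Fits of the compared groups alone called it lower in siYT_DMSO over siC_DMSO (adjusted p = 0.00602) and in siC_XMU over siC_DMSO (adjusted p = 0.033). Without library c of siYT_XMU, where its count was 0, the knockdown gave -0.96 (adjusted p = 0.0047) in DMSO and was also called lower under XMU-MP1 (adjusted p = 0.00833).

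**Figure D2:**
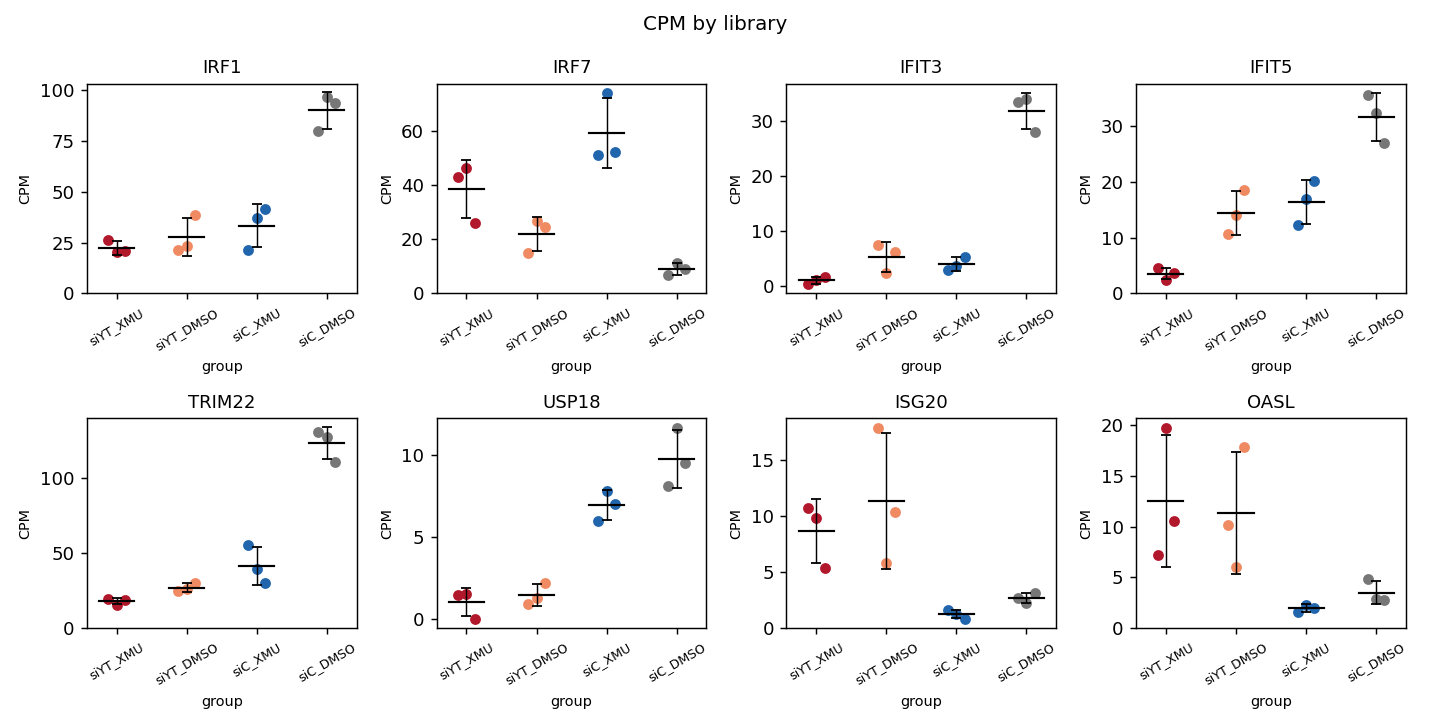
CPM (vertical axes, from 0 or just under it) of 8 members in the 4 groups, with 1 point per library, a bar at the mean and whiskers of 1 SD (n = 3). IRF1, IFIT3, IFIT5 and TRIM22 are highest in siC_DMSO, IRF7 is highest in siC_XMU, USP18 is low and ISG20 and OASL are high in both groups with the YAP and TAZ siRNA.

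The IFIT proteins bind viral RNA that lacks the methyl marks of host mRNA, and the 4 genes measured here lie in a cluster on chromosome 10. IFIT2 fell in all 4 comparisons between groups. Its level was 0.352, 0.464 and 0.829 CPM in siYT_XMU, 1.75, 1.45 and 1.62 CPM in siYT_DMSO, 1.06, 2.95 and 1.97 CPM in siC_XMU and 13.1, 13.1 and 8.99 CPM in siC_DMSO. No siYT_XMU library reached any library of another group, and siC_DMSO was above all others. On the log2 scale the change was -2.86 (SE 0.44, adjusted p = 0.000432) in siYT_DMSO over siC_DMSO and -2.55 (SE 0.44, adjusted p = 0.00489) in siC_XMU over siC_DMSO. It was -1.70 (SE 0.47, adjusted p = 0.0352) in siYT_XMU over siYT_DMSO and -2.02 (SE 0.47, adjusted p = 0.00571) in siYT_XMU over siC_XMU. Its call in siYT_XMU over siYT_DMSO was lost without any of 9 libraries, with an adjusted p of up to 0.114, and without library c of siYT_XMU the value was -1.96 (adjusted p = 0.0174). In a fit of the compared groups alone the call in siYT_XMU over siC_XMU was lost (adjusted p = 0.0782).

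IFIT3 was also lowest in siYT_XMU and highest in siC_DMSO. It was at 0.470, 1.2 and 1.66 CPM in siYT_XMU, 7.55, 2.38 and 6.14 CPM in siYT_DMSO, 2.89, 3.66 and 5.37 CPM in siC_XMU and 33.3, 33.8 and 27.9 CPM in siC_DMSO. The siYT_DMSO and siC_XMU libraries overlapped, and siYT_XMU was below both. Its log2 fold change was -2.57 (SE 0.48, adjusted p = 0.00147) for the knockdown in DMSO, -2.99 (SE 0.48, adjusted p = 0.00354) for XMU-MP1 with the control siRNA, -2.40 (SE 0.51, adjusted p = 0.0107) for XMU-MP1 after the knockdown and -1.97 (SE 0.51, adjusted p = 0.00977) for the knockdown under XMU-MP1. Each of these calls was kept when any library was left out, with an adjusted p of at most 0.0383, and the last 2 were lost in fits of the compared groups alone (adjusted p = 0.1 and 0.0554). Without library c of siYT_XMU those 2 were -2.65 and -2.23.

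IFIT5 had its largest falls in siYT_XMU. Its level was 4.49, 2.42 and 3.73 CPM in siYT_XMU, 10.6, 14.0 and 18.5 CPM in siYT_DMSO, 12.3, 16.9 and 20.1 CPM in siC_XMU and 35.5, 32.3 and 27.0 CPM in siC_DMSO. Both siYT_DMSO and siC_XMU lay between siYT_XMU and siC_DMSO and overlapped each other. IFIT5 changed by a log2 fold change of -1.13 (SE 0.29, adjusted p = 0.0111) for the knockdown in DMSO, -2.03 (SE 0.31, adjusted p = 0.00188) for XMU-MP1 after it and -2.22 (SE 0.31, adjusted p = 0.000226) for the knockdown under XMU-MP1. With the control siRNA the inhibitor gave -0.94 (SE 0.29, adjusted p = 0.0676), not called although no library overlapped, and the difference between arms of -1.09 (SE 0.42, adjusted p = 0.191) was not called. IFIT1, which has 2 matches to the ISRE core in its window, was at 0.411, 0.309 and 5.80 CPM in siYT_XMU, 2.46, 0.425 and 1.41 CPM in siYT_DMSO, 1.2, 4.27 and 1.17 CPM in siC_XMU and 6.66, 7.50 and 3.73 CPM in siC_DMSO. Library c of siYT_XMU, at 28 counts, was far above a and b of its group, and without it IFIT1 was called lower for the knockdown in DMSO at -2.08 (adjusted p = 0.0364) and under XMU-MP1 at -2.62 (adjusted p = 0.0321).

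Among the OAS proteins, which make a second messenger on binding double-stranded RNA or, for OASL, bind RNA without making it, OAS3 fell and OASL rose. OASL was at 7.16, 19.7 and 10.6 CPM in siYT_XMU, 10.2, 6.03 and 17.9 CPM in siYT_DMSO, 1.54, 2.30 and 2.00 CPM in siC_XMU and 4.81, 2.89 and 2.74 CPM in siC_DMSO. All 6 libraries with the YAP and TAZ siRNA were above all 6 with the control siRNA. OASL had a log2 fold change of 1.71 (SE 0.47, adjusted p = 0.0154) in siYT_DMSO over siC_DMSO, lost without library b or c of siC_DMSO or library c of siYT_DMSO (adjusted p of up to 0.0887). It was 2.68 (SE 0.49, adjusted p = 0.00131) in siYT_XMU over siC_XMU, kept without each library in turn. OAS3 was at 55.8, 67.9 and 90.7 CPM in siYT_XMU, 52.7, 59.8 and 48.7 CPM in siYT_DMSO, 58.3, 64.3 and 67.2 CPM in siC_XMU and 66.6, 90.2 and 107 CPM in siC_DMSO. With all libraries edgeR called it in siYT_DMSO over siC_DMSO alone, at -0.71 (SE 0.21, adjusted p = 0.0218). That call was lost without any of 4 libraries (adjusted p of up to 0.102). OAS1 was at 5.43, 10.3 and 0 CPM in siYT_XMU, 9.34, 16.3 and 9.45 CPM in siYT_DMSO, 1.84, 3.12 and 1.09 CPM in siC_XMU and 3.69, 7.80 and 6.07 CPM in siC_DMSO, and siYT_DMSO was above all other groups but for library b of siYT_XMU. With all libraries edgeR did not call OAS1. Without library c of siYT_XMU, where it had no count, it was called higher in siYT_XMU over siC_XMU at 1.96 (adjusted p = 0.0101). In that fit OAS1 was also lower in siC_XMU over siC_DMSO at -1.54 (adjusted p = 0.0484). A fit of the compared groups alone gave -1.51 there (adjusted p = 0.0468).

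ISG20, a nuclease that degrades single-stranded RNA, also rose with the siRNA. It was at 10.7, 9.82 and 5.39 CPM in siYT_XMU, 17.9, 5.80 and 10.3 CPM in siYT_DMSO, 1.54, 1.24 and 0.819 CPM in siC_XMU and 2.66, 2.21 and 3.10 CPM in siC_DMSO. The lowest library with the YAP and TAZ siRNA was above the highest with the control siRNA. ISG20 rose by a log2 fold change of 2.09 (SE 0.45, adjusted p = 0.00365) in siYT_DMSO over siC_DMSO and 2.86 (SE 0.47, adjusted p = 0.00058) in siYT_XMU over siC_XMU, or 3.09 without library c of siYT_XMU. ISG15, the ubiquitin-like protein that is conjugated to others in an interferon response, was not called in any comparison, with library values between 3.46 and 9.87 CPM. HERC6, a relative of the ISG15 ligase HERC5, lay between 10.8 and 21.4 CPM and was called in the fit without library c of siYT_XMU only, higher in siYT_XMU over siC_XMU at 0.69 (adjusted p = 0.0394).

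PARP9 and DTX3L form a complex that marks histones, PARP14 is another ADP-ribosyltransferase, and all 3 genes lie close together on chromosome 3. All 3 fell with each treatment alone. DTX3L was at 7.40, 7.48 and 22.0 CPM in siYT_XMU, 24.2, 23.2 and 40.1 CPM in siYT_DMSO, 15.2, 16.4 and 25 CPM in siC_XMU and 66.0, 80.6 and 74.9 CPM in siC_DMSO. The siC_DMSO libraries stood above the other 9. DTX3L had log2 fold changes of -1.34 (SE 0.40, adjusted p = 0.0216) in siYT_DMSO over siC_DMSO and -1.97 (SE 0.40, adjusted p = 0.0113) in siC_XMU over siC_DMSO, lost without any of 4 and of 2 libraries (adjusted p of up to 0.0846 and 0.0615). With XMU-MP1 after the knockdown it was -1.30 (SE 0.41, adjusted p = 0.0575), and -1.97 (adjusted p = 0.00274) without library c of siYT_XMU.

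PARP9 levels were 5.31, 8.49 and 8.91 CPM in siYT_XMU, 20.2, 17.5 and 17.2 CPM in siYT_DMSO, 7.40, 10.9 and 11.8 CPM in siC_XMU and 22.2, 40.0 and 36.0 CPM in siC_DMSO. Both groups with XMU-MP1 lay below both groups with DMSO, and they overlapped each other. XMU-MP1 lowered PARP9 with the control siRNA by a log2 fold change of -1.71 (SE 0.29, adjusted p = 0.00466) and after the knockdown by -1.29 (SE 0.29, adjusted p = 0.0147). The knockdown in DMSO gave -0.84 (SE 0.28, adjusted p = 0.0409), lost without any of 7 libraries (adjusted p of up to 0.166). PARP9 and DTX3L overlap by 447 bases on opposite strands, and whether the counting used the strand is not given in the sources used here, so reads in the overlap cannot be told apart. PARP14, which does not overlap them, was at 31.9, 28.6 and 46.4 CPM in siYT_XMU, 36.4, 33.3 and 45.5 CPM in siYT_DMSO, 45.6, 46.3 and 52.0 CPM in siC_XMU and 71.2, 99.3 and 94.9 CPM in siC_DMSO. The siC_DMSO libraries were again above the other 9. PARP14 fell by -1.20 (SE 0.21, adjusted p = 0.00103) in siYT_DMSO over siC_DMSO and by -0.88 (SE 0.21, adjusted p = 0.0233) in siC_XMU over siC_DMSO, the second lost without any of 5 libraries (adjusted p of up to 0.102).

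**Figure D3:**
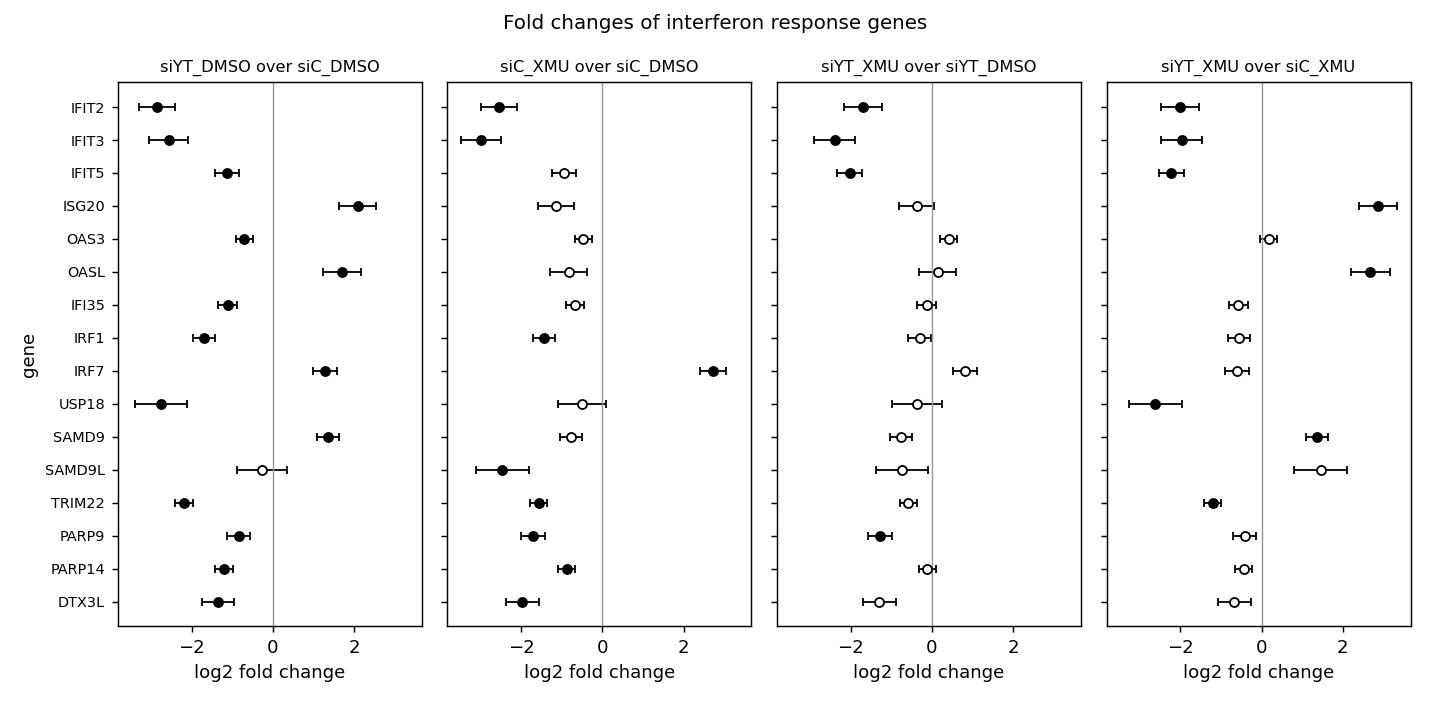
Log2 fold change (horizontal axes) of the 16 members called in at least 1 of the 4 comparisons between groups (rows, CXCL10 left out because a group is at 0), with whiskers of 1 SE, filled points where edgeR's adjusted p is under 0.05 and open points elsewhere. IFIT2 and IFIT3 are filled and below 0 in all 4 panels, while ISG20, OASL and SAMD9 are filled and above 0 in the panels for the YAP and TAZ siRNA.

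TRIM22, an antiviral ubiquitin ligase, had the smallest adjusted p of any member. It was at 19.4, 15.6 and 19.1 CPM in siYT_XMU, 24.7, 26.1 and 30.1 CPM in siYT_DMSO, 55.2, 39.6 and 29.8 CPM in siC_XMU and 131, 127 and 111 CPM in siC_DMSO. The groups siYT_XMU, siYT_DMSO and siC_DMSO did not overlap one another, and siC_XMU came within reach of siYT_DMSO through library c. TRIM22 fell by -2.19 (SE 0.22, adjusted p = 2.23e-05) in siYT_DMSO over siC_DMSO, -1.57 (SE 0.21, adjusted p = 0.0016) in siC_XMU over siC_DMSO and -1.21 (SE 0.22, adjusted p = 0.00112) in siYT_XMU over siC_XMU on the log2 scale, and each call was kept when any library was left out. The difference between arms in the response to XMU-MP1 was 0.98 (SE 0.30, adjusted p = 0.102), which is not called.

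SAMD9 and SAMD9L, neighbouring paralogs on chromosome 7 whose proteins restrict poxviruses and growth, differed in their calls. SAMD9 was at 76.3, 51.9 and 55.9 CPM in siYT_XMU, 141, 86.6 and 86.6 CPM in siYT_DMSO, 15.6, 24.1 and 32.0 CPM in siC_XMU and 41.3, 41.3 and 39 CPM in siC_DMSO. The groups did not overlap, with siYT_DMSO highest and siC_XMU lowest. SAMD9 rose by 1.37 (SE 0.27, adjusted p = 0.00246) in siYT_DMSO over siC_DMSO and by 1.36 (SE 0.28, adjusted p = 0.00251) in siYT_XMU over siC_XMU on the log2 scale, or 1.42 without library c of siYT_XMU, the second being lost in both limma fits (adjusted p = 0.0603 and 0.0663). The inhibitor gave -0.77 (SE 0.27, adjusted p = 0.091) after the knockdown and -0.76 (SE 0.27, adjusted p = 0.108) with the control siRNA. SAMD9L was at 1.35, 0.580 and 3.31 CPM in siYT_XMU, 3.04, 1.47 and 3.66 CPM in siYT_DMSO, 0.421, 0.836 and 0.516 CPM in siC_XMU and 2.28, 3.28 and 4.28 CPM in siC_DMSO. It was called lower in siC_XMU over siC_DMSO at -2.47 (SE 0.65, adjusted p = 0.0345), lost without any of 7 libraries (adjusted p of up to 0.137), and the knockdown in DMSO gave -0.27 (SE 0.61, adjusted p = 0.787). BST2, which tethers budding virus to the cell, lay between 0.947 and 4.13 CPM and was not called.

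Of the IFI proteins in the table, IFI35 was called once by edgeR with all libraries. IFI35, a binding partner of NMI, was at 7.04, 8.26 and 9.32 CPM in siYT_XMU, 9.55, 7.31 and 9.99 CPM in siYT_DMSO, 11.7, 11.9 and 12.8 CPM in siC_XMU and 16.2, 19.4 and 22.5 CPM in siC_DMSO. Its siC_DMSO libraries were above the other 9, and every siC_XMU library was above every library with the YAP and TAZ siRNA. It fell by -1.11 (SE 0.23, adjusted p = 0.00269) in siYT_DMSO over siC_DMSO, and the inhibitor with the control siRNA gave -0.67 (SE 0.22, adjusted p = 0.0887). Without library c of siYT_XMU IFI35 was also called lower in siC_XMU over siC_DMSO (adjusted p = 0.0461) and in siYT_XMU over siC_XMU (adjusted p = 0.0361). IFI6, a mitochondrial and endoplasmic reticulum protein that limits flaviviruses, lay between 2.11 and 9.67 CPM without a call. IFI44 and IFI44L, a pair of related cytoplasmic proteins, reached at most 3.33 and 2.42 CPM, and edgeR with all libraries called neither. A fit of the compared groups alone called IFI44 lower in siC_XMU over siC_DMSO (adjusted p = 0.0388). DESeq2 called IFI44L lower in siYT_XMU over siYT_DMSO (adjusted p = 0.0498) and in siYT_XMU over siC_XMU (adjusted p = 0.0411).

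B2M, the light chain of MHC class I, was at 356, 289 and 379 CPM in siYT_XMU, 215, 186 and 339 CPM in siYT_DMSO, 453, 439 and 437 CPM in siC_XMU and 326, 387 and 340.4 CPM in siC_DMSO. The siC_XMU libraries were above all others, and edgeR with all libraries did not call B2M. It gave -0.51 (SE 0.21, adjusted p = 0.0852) in siYT_DMSO over siC_DMSO and 0.33 (SE 0.21, adjusted p = 0.378) in siC_XMU over siC_DMSO. A fit of the compared groups alone called B2M higher in siC_XMU over siC_DMSO, at 0.36 (adjusted p = 0.0286). TAP1, the peptide transporter that feeds MHC class I, is listed at 0 in every library, as are its neighbours PSMB8, PSMB9 and HLA-E on chromosome 6. TAP2 and HLA-C are listed on other scaffolds, so these zeros cannot be read as absence of the transcripts.

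CXCL10, a chemokine for T cells, is the member whose call rests on a group at 0. Its counts were 12, 30 and 0 in siYT_XMU, 29, 38 and 145 in siYT_DMSO, 0, 0 and 0 in siC_XMU and 0, 21 and 0 in siC_DMSO. The siYT_DMSO libraries were above all other libraries in CPM, at 1.21, 0.735 and 2.40 CPM. Against a floor of 3 counts per library, CXCL10 was at least 5.90-fold higher in siYT_XMU than in siC_XMU, where edgeR's adjusted p was 0.0302, although library c of siYT_XMU also had 0 counts. That call was lost without any library of siC_XMU or library b of siYT_XMU (adjusted p of up to 0.0787) and in both limma fits (0.111 and 0.312). In siYT_DMSO over siC_DMSO the adjusted p was 0.0911.

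Of the members with few reads, MX1, MX2, OAS2, RSAD2, CMPK2 and XAF1 had most of theirs in the same 2 libraries, unlike HERC5 and EPSTI1. MX1, the GTPase that blocks influenza virus, had 0, 0 and 8 counts in siYT_XMU, 89, 8 and 8 in siYT_DMSO, 3, 179 and 5 in siC_XMU and 30, 12 and 62 in siC_DMSO. Library b of siC_XMU and library a of siYT_DMSO held the most of them. The related MX2 had 44 counts in library a of siYT_DMSO, 41 in library b of siC_XMU and 0 in the other 10 libraries. RSAD2, the antiviral enzyme viperin, had 10 and 26 counts in these libraries, and CMPK2, a mitochondrial nucleotide kinase, had 16 and 8, with 0 in the other 10 for both.
OAS2 had 0, 12 and 0 counts in siYT_XMU, 53, 4 and 0 in siYT_DMSO, 0, 115 and 0 in siC_XMU and 16, 4 and 19 in siC_DMSO, so the same libraries led. XAF1, a proapoptotic protein, had 15 counts in library a of siYT_DMSO and 12 in library b of siC_XMU, with 7 and 4 counts in libraries b and c of siYT_XMU and 0 elsewhere. MX1, OAS2 and XAF1 were tested and not called in any comparison, and CMPK2 and RSAD2 overlap by 87 bases on opposite strands. HERC5, the main ligase for ISG15 in humans, and EPSTI1 reached at most 14 and 34 counts, both in siC_DMSO.

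**Figure D4:**
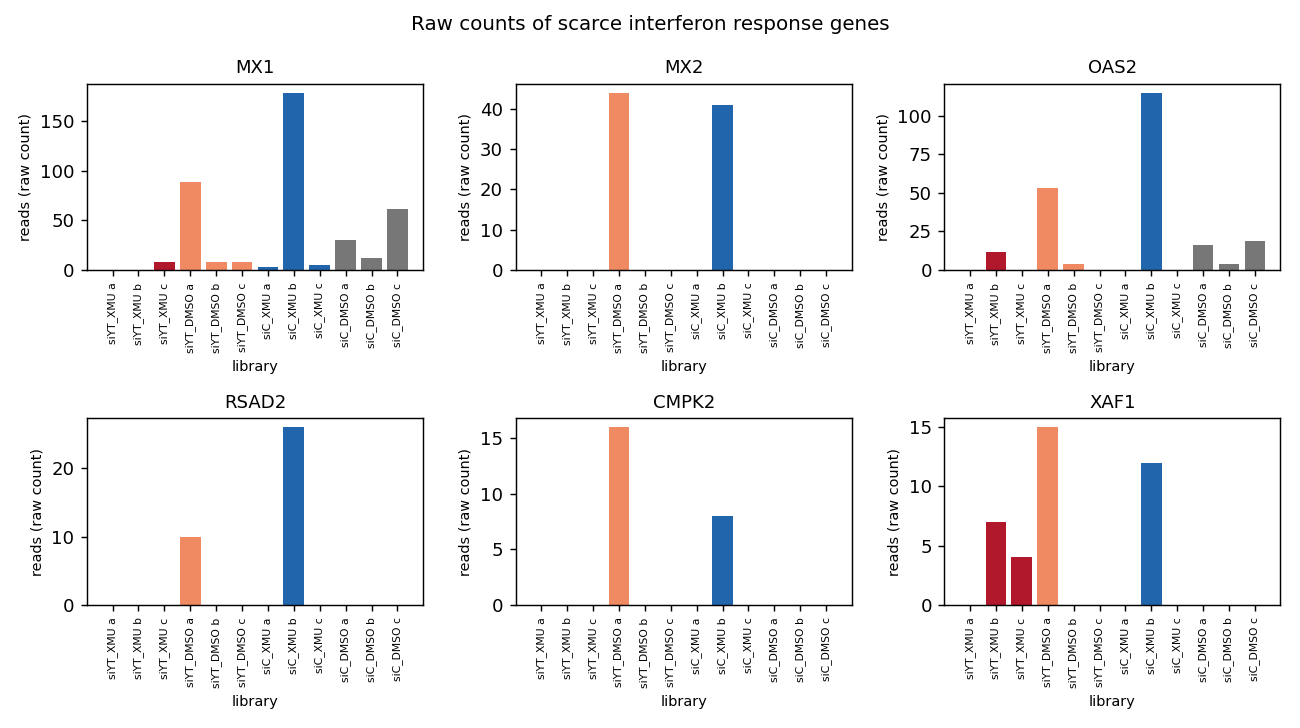
Raw counts (vertical axes, reads per library, not scaled for depth) of 6 members with few reads in each of the 12 libraries (horizontal axes, coloured by group). Library a of siYT_DMSO and library b of siC_XMU hold the tallest bars in all 6 panels, while the siC_DMSO libraries hold reads of MX1 and OAS2 only.

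The genes upstream and around the set were read from lists of the same pathway. Of 11 interferon ligands, IFNE was tested, and IFNB1, IFNA5, IFNL1, IFNL3 and IFNG had no count in any library while the others had at most 12 counts in a library. IFNE, an interferon known from epithelium of the reproductive tract, was at 0.675, 0.232 and 0.829 CPM in siYT_XMU, 2.04, 1.76 and 1.89 CPM in siYT_DMSO, 0.321, 0.279 and 0.212 CPM in siC_XMU and 0.230, 0.127 and 0.262 CPM in siC_DMSO. It was called higher in siYT_DMSO over siC_DMSO at 3.19 (SE 0.66, adjusted p = 0.00297), and the siYT_DMSO libraries were above all others. Of 11 receptor and kinase genes 1 was called with the knockdown in DMSO, STAT3, higher at 0.49, where 16.1% of all genes tested were higher. With XMU-MP1 in control cells 1 was called, IL10RB, lower at -0.93, where 5.26% of all genes were lower. In siYT_XMU over siYT_DMSO 2 were lower, where 7.92% of all genes were. In siYT_XMU over siC_XMU 1 was higher and 1 lower, where 17.7% and 18.6% of all genes were.

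Of 7 restraint genes, SOCS1 and SOCS3, inhibitors of JAK kinases, moved most. SOCS3 was at 38.1, 42.8 and 40.0 CPM in siYT_XMU, 6.38, 2.77 and 10.3 CPM in siYT_DMSO, 10.1, 12.1 and 13.7 CPM in siC_XMU and 14.4, 25.7 and 30.1 CPM in siC_DMSO. It fell in siYT_DMSO over siC_DMSO by -1.85 (SE 0.41, adjusted p = 0.00446), rose in siYT_XMU over siYT_DMSO by 2.63 (SE 0.42, adjusted p = 0.00234), and differed between arms by 3.60 (SE 0.58, adjusted p = 0.013) in its response to XMU-MP1. SOCS1 rose with the knockdown, by 3.15 (SE 0.65, adjusted p = 0.00302) in DMSO and by 2.76 (SE 0.64, adjusted p = 0.00569) under XMU-MP1, where 4 of the 7 genes were called higher, against 17.7% of all genes tested.

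Among 13 sensors and adaptors tested, 2 were called lower and 2 higher with the knockdown in DMSO, where 16.0% and 16.1% of all genes were. These shares of the list are close to those of all genes. TLR3 and CGAS were the genes lower, and RIGI was among those higher. TLR3 fell by -2.30 and CGAS by -1.94 on the log2 scale, while RIGI, a sensor of short double-stranded RNA, rose by 0.89. XMU-MP1 lowered 4 of the 13 with the control siRNA, where 5.26% of all genes were lower, and 5 after the knockdown, where 7.92% were. The counts lower without library c of siYT_XMU were 5 for the knockdown in DMSO, 7 for XMU-MP1 with the control siRNA and 5 after the knockdown. In that fit 18.8%, 7.95% and 8.37% of all genes were lower in these comparisons. IKBKE, TLR3, MAVS and TICAM1 fell in control cells, by -1.84, -1.95, -1.46 and -0.74 on the log2 scale. TBK1, the kinase that activates IRF3, was at 16.5, 12.6 and 7.67 CPM in siYT_XMU, 36.5, 62.4 and 50.3 CPM in siYT_DMSO, 39.4, 44.4 and 42.8 CPM in siC_XMU and 39.8, 40.6 and 35.5 CPM in siC_DMSO, and its response to XMU-MP1 differed between arms by -2.12 (SE 0.37, adjusted p = 0.0182).

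A further list of 47 interferon response genes outside the set held 40 tested genes. In siYT_DMSO over siC_DMSO 1 of them was called higher and 17 lower, where 16.1% and 16.0% of all genes were, and their median log2 fold change was -0.88. IFITM2 fell by -2.97, PLSCR1 by -2.22, IFI16 by -2.10 and IFITM3 by -2.08, all on the log2 scale, and the IFITM genes are near-identical copies whose reads may be shared. In siC_XMU over siC_DMSO 11 were called, all lower, where 5.26% of all genes were, led by NMI at -1.66, GBP3 at -1.81, TRIM14 at -2.06 and PARP12 at -1.58. In siYT_XMU over siYT_DMSO 1 was higher and 6 lower, where 4.19% and 7.92% of all genes were, and in siYT_XMU over siC_XMU 3 were higher and 10 lower, where 17.7% and 18.6% were. Without library c of siYT_XMU 1 was higher and 19 lower of 41 in siYT_DMSO over siC_DMSO, where 18.2% and 18.8% of all genes were. In that fit 14 were lower in siC_XMU over siC_DMSO, where 7.95% of all genes were. It had 2 higher and 5 lower in siYT_XMU over siYT_DMSO, where 6.65% and 8.37% of all genes were. In siYT_XMU over siC_XMU it had 2 higher and 11 lower, where 19.3% and 18.7% of all genes were.

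Markers of cell types were summed beside these results. The 7 mammary epithelial markers (KRT5, KRT14, KRT8, KRT18, EPCAM, CDH1 and TP63) summed to 3540 to 5045 CPM in siYT_XMU, 2499 to 4006 CPM in siYT_DMSO, 6909 to 9380 CPM in siC_XMU and 8323 to 9227 CPM in siC_DMSO. With the knockdown in DMSO 4 of these 7 were called lower (KRT18, KRT8, EPCAM and KRT5), where 16.0% of all genes tested were lower. CDH1 was called higher, where 16.1% of all genes were higher. Under XMU-MP1 the knockdown gave 4 lower and 1 higher of the 7, where 18.6% and 17.7% of all genes were. The epithelial markers called thus moved with the siRNA as part of the set did, and their part in the results was not tested. The 5 leukocyte markers summed to 21.6 to 92.2 CPM in siYT_XMU, 23.3 to 41.5 CPM in siYT_DMSO, 6.89 to 14.5 CPM in siC_XMU and 36.5 to 52.6 CPM in siC_DMSO, and library c of siYT_XMU had 58.6 CPM of LYZ and 5.59 CPM of PTPRC. CLEC4C and LILRA4 were at 0 in every library, and both mark plasmacytoid dendritic cells, a main source of type I interferon in blood, whose 5 markers summed to at most 3.20 CPM. The 6 fibroblast markers summed to 23.5 to 135 CPM in siYT_XMU, 24.2 to 70.1 CPM in siYT_DMSO, 15.9 to 26.9 CPM in siC_XMU and 11.1 to 23.9 CPM in siC_DMSO, and the 5 endothelial markers to at most 8.49 CPM. In bulk RNA, fewer cells expressing a gene and less of its RNA per cell cannot be told apart.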

How the data were processed

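Poly(A) RNA was sequenced as stranded paired-end libraries in 12 samples of MCF10A cells, 3 in each of 4 groups taken from the labels' treatment. Per the submitters' processing notes the build was GRCh38.p13 and the tools were HISAT2, StringTie, edgeR, cutadapt and FastQC, with no version or role given. Per the file headers the authors deposited raw whole-number counts and FPKM per gene, all value columns of which were used. How reads were assigned to genes, and with which strand setting, is not given in the sources used here. The deposited FPKM is 1e-04 where the count is 0.

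Counts were fitted with edgeR 4.0.16 in R 4.3.3 (filterByExpr, TMM, glmQLFit with 4 group means over all 12 libraries, 8 residual degrees of freedom). The contrasts were siYT_DMSO over siC_DMSO, siC_XMU over siC_DMSO, siYT_XMU over siYT_DMSO, siYT_XMU over siC_XMU and their interaction, (siYT_XMU over siYT_DMSO) minus (siC_XMU over siC_DMSO). P-values were adjusted by Benjamini-Hochberg over 18143 genes of 46931, two-sided, and called under 0.05. Log2 fold changes carry a prior count of 0.125, and the standard error (SE) is the size of the log2 fold change over the square root of F. Levels are CPM on TMM-scaled totals, and TMM takes most genes as unchanged. Totals were 8243351 to 67953633 counts. Floors of 3 counts cover counting error only. The model was tested on simulated data. Exact permutation tests of 3 against 3 libraries used log2(CPM + 0.5). Motifs were searched on both strands.

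The members and lists were chosen with earlier results of these data known. All 38 members are accounted for by role. Library values are given for members called in a contrast and for STAT2, IRF9, IRF7 and IRF1, and for others where a sentence turns on them. Genes outside the set are named from the pathway lists, up to 4 a list with the smallest adjusted p in a contrast, and the marker genes were named after their values were seen. Some listed genes are not reported here. Also tried were no filter, a filter of CPM of at least 1 in 3 libraries, DESeq2's size factors, DESeq2 1.42.0, a fit of the compared groups alone, a replicate block, limma 3.58.1 on log2(FPKM + 0.1) and log2(FPKM + 1), and leaving out each library. Repeating the list counts without library c of siYT_XMU was chosen after seeing the data.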

Additional observations from a re-analysis of the deposited data

Results flagged for a closer look

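The response of IRF7 to XMU-MP1 differed between the siRNA arms by a test of the difference itself, with a log2 difference of -1.91 (SE 0.42, edgeR adjusted p = 0.0366). The log2 fold change was 0.82 in siYT_XMU over siYT_DMSO and 2.72 in siC_XMU over siC_DMSO. In CPM the means were 38.5 ± 10.8 in siYT_XMU, 21.9 ± 6.18 in siYT_DMSO, 59.1 ± 12.9 in siC_XMU and 8.94 ± 2.24 in siC_DMSO (SD, n = 3 each). Without library c of siYT_XMU, the shallow library, the difference was -1.70 (adjusted p = 0.04), and over the fits without each library it ran between -2.12 and -1.70 with an adjusted p of up to 0.107. With limma on log2(FPKM + 0.1) and log2(FPKM + 1) it was -2.24 and -2.05 (adjusted p = 0.0594 and 0.0518). The part of depth or scaling in this difference was not tested beyond these fits.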

How the results depend on the processing

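Of 38 calls of a member in a contrast, none changed sign under an alternative, 22 were kept under every one of the 20 settings that gave a value, and 16 were lost at least once. Members without a call could change sign: IFIT1 in siYT_XMU over siYT_DMSO was 0.42, and -1.98 without library c of siYT_XMU. With the compared groups alone, siC_XMU over siC_DMSO had 3 members higher and 14 lower, siYT_XMU over siYT_DMSO 1 lower and siYT_XMU over siC_XMU 3 lower. By DESeq2 siYT_XMU over siYT_DMSO had 1 higher, with IFI44L and DTX3L added among the lower, and the interaction had 3 higher. With limma on log2(FPKM + 0.1), siYT_XMU over siYT_DMSO had 9 lower, siYT_XMU over siC_XMU 2 higher and 16 lower and the interaction 0 lower. With limma on log2(FPKM + 1) these were 9 lower, 2 higher and 15 lower, and 1 higher and 0 lower. FPKM is not TMM-scaled, and the cause of these differences was not tested. The shares of all genes called under these settings are not given here. These counts therefore show how far the calls moved and not an excess over all genes.

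Leaving out each library gave, for siYT_DMSO over siC_DMSO, 3 to 4 higher and 8 to 13 lower, and for siC_XMU over siC_DMSO 1 to 1 higher and 5 to 10 lower. It gave 0 to 1 higher and 3 to 5 lower for siYT_XMU over siYT_DMSO, 3 to 6 higher and 5 to 10 lower for siYT_XMU over siC_XMU, and 0 to 1 in each direction for the interaction. Where a group kept 2 libraries its spread was pooled with the others. Of these fits, shares of all genes are given only for the fit without library c of siYT_XMU. With the letters as a replicate block, siYT_XMU over siYT_DMSO had 5 lower and siYT_XMU over siC_XMU 3 higher, CXCL10 being lost, and the other counts were as reported. Residuals of libraries with the same letter in different groups correlated weakly, with 2 of 18 pairs over 0.1 (range -0.0216 to 0.173). Even so, 11 of 12 libraries had their highest correlation within their letter. The letters may therefore pair the libraries weakly, and the main fit has no block. Depth limits most the members that library c of siYT_XMU lists at 0 (among them OAS1, IFIH1 and USP18), which allows up to 0.622 CPM.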
